A study of Mus musculus with 4 samples.

Results

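The genes of the Eph and ephrin family and of the semaphorins with their plexin and neuropilin receptors were examined for accessible chromatin in hair follicle stem cells, the slow-cycling cells of the follicle bulge from which hair regrows. The group held every RefSeq protein-coding gene of mouse assembly GRCm38 whose symbol is Epha, Ephb, Efna or Efnb with a number, Sema with a number and a letter, or Plxna, Plxnb, Plxnc or Plxnd with a number, together with Nrp1 and Nrp2. These were 53 of 21887 protein-coding genes. They are called the guidance genes here.

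The assay was ATAC-seq, which reads out where the transposase Tn5 can reach and cut DNA. The knockout mice carried K14Cre, the K14-H2BGFP reporter and Foxc1 fl/fl, floxed alleles of a forkhead transcription factor gene. The control mice carried K14-H2BGFP and Foxc1 fl/fl without Cre, so the reporter and the floxed alleles were common to both genotypes. The K14 promoter is active in keratin 14-expressing epithelium, so the floxed alleles are a target of Cre there and not in the hair follicle stem cells alone. Both groups were female mice at postnatal day 30, and cells of back skin were sorted as H2BGFP(+), Sca-1(-), CD34(+) and CD49f(+). Each genotype was 1 library sequenced in 2 runs, with no biological replicate, and how many mice gave the cells is not stated in the labels. The data were 1 list of 74777 accessible regions for the whole series, given as coordinates alone. A region could not be assigned to a genotype or a run, the read depth is unknown, and no Foxc1 knockout against control comparison was made.

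Eph receptors are receptor tyrosine kinases that bind ephrins on neighbouring cells, and signals run into both cells: ephrin-A ligands are tethered to the membrane by a lipid anchor, whereas ephrin-B ligands span it. Semaphorins are secreted (class 3 in mice) or membrane-bound ligands whose receptors are the plexins, and most class 3 semaphorins bind a neuropilin that forms a complex with an A-type plexin. Both systems are best known for steering axons and vessels, and in epithelia they act on cell adhesion, boundaries and movement.

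A total of 7 starts were chosen to show what the list contained at these genes, printed as the 250 bases before the RefSeq transcription start, 5′ to 3′ on the strand of the gene, with every CpG in capitals. Efna5, Efnb2, Ephb6 and Epha7 are shown because their starts lay under some of the widest regions at guidance genes, and all 250 bases of each were inside a region. Epha8, Plxnc1 and Plxnb3 are shown because no base of theirs was in a region. Sequences and positions are those of RefSeq for GRCm38.p6.
Efna5, chr17:62881318-62881567, minus strand: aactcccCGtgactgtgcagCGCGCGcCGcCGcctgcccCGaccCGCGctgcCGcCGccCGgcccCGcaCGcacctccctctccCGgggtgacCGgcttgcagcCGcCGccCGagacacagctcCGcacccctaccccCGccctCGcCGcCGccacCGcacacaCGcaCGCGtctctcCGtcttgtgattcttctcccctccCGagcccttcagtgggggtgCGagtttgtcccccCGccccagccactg
Efnb2, chr8:8661243-8661492, minus strand: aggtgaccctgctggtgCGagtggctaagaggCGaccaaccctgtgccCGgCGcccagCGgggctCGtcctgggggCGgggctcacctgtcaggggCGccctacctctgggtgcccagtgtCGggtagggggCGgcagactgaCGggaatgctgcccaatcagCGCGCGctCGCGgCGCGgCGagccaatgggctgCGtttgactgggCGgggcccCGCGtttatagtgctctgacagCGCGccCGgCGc
Ephb6, chr6:41605261-41605510, plus strand: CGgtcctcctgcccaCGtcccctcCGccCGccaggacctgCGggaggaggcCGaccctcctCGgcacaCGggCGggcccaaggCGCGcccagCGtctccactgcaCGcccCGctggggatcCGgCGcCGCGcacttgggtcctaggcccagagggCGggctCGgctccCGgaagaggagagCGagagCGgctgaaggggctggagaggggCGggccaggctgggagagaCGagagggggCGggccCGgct
Epha7, chr4:28812881-28813130, plus strand: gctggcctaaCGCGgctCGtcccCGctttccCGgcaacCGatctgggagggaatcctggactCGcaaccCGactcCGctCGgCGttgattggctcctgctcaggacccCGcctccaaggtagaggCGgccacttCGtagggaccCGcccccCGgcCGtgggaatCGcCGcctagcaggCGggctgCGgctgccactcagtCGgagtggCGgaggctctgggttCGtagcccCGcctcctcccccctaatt
Epha8, chr4:136956817-136957066, minus strand: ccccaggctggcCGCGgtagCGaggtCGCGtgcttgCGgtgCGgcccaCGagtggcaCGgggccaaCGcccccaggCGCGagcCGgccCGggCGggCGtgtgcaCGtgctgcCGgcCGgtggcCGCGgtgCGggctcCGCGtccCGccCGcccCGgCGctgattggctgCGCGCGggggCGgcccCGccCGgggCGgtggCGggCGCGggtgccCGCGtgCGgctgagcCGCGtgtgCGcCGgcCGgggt
Plxnc1, chr10:94944846-94945095, minus strand: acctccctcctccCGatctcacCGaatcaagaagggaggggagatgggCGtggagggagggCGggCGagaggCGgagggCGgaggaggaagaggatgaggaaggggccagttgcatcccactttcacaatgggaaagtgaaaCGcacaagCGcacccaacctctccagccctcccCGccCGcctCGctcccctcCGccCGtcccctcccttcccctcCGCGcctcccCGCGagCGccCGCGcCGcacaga
Plxnb3, chrX:73756853-73757102, plus strand: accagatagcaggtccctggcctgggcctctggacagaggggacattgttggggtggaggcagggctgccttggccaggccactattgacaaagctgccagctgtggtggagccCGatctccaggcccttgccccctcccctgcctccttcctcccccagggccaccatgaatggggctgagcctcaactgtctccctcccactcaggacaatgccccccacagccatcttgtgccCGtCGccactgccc
The 4 covered stretches held 32, 27, 27 and 25 CpG in the order given. The uncovered stretch of Epha8 held 46, that of Plxnc1 22 and that of Plxnb3 3, so the number of CpG did not separate the covered from the uncovered starts shown.

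Most guidance genes had an accessible end, and many had several more regions in the gene body. A region counted as an end region when it shared at least 1 base with the 1 kb on either side of a gene bound. Other regions counted as inside when their midpoint lay between the bounds, and as flanking when it lay within 50 kb outside them. Of the 53 guidance genes, 36 had an end region (67.9%, exact Clopper-Pearson 95% interval 53.7 to 80.1), against 57.6% of all protein-coding genes, a share inside that interval. An inside region was found in 40 (75.5%, interval 61.7 to 86.2), against 36.7% of all protein-coding genes, which lies below it. The 17 without an end region were Efna2, Efna3, Efnb3, Epha6, Epha8, Epha10, Ephb2, Sema3b, Sema3g, Sema4a, Sema4f, Sema4g, Sema6b, Sema7a, Plxna4, Plxnb3 and Plxnc1. Flanking regions were found at 45 (84.9%), against 87.1%, close to the background. Regions at both ends were found at 10 guidance genes (18.9%, interval 9.44 to 32), against 8.14% of all. The intervals cover counting error over genes only, and genes share 1 list and are not replicates, so no test was made.

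A guidance gene had a median of 9 regions in all (quartiles 6 and 15), against 5 (2 and 8) for all protein-coding genes. The medians for inside regions were 2 and 0, and for flanking regions 4 and 3. Only Epha8 had no region of any kind, as did 1963 of all protein-coding genes (8.97%). The 572 counts came from 558 distinct regions, because the neighbours Efna1, Efna3 and Efna4 on chromosome 3, and Sema3b and Sema3f on chromosome 9, shared some. Efna1 and Efna3 shared 6 regions, Efna3 and Efna4 shared 5, Efna1 and Efna4 shared 2, and Sema3b and Sema3f shared 3.

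**Figure D1:**
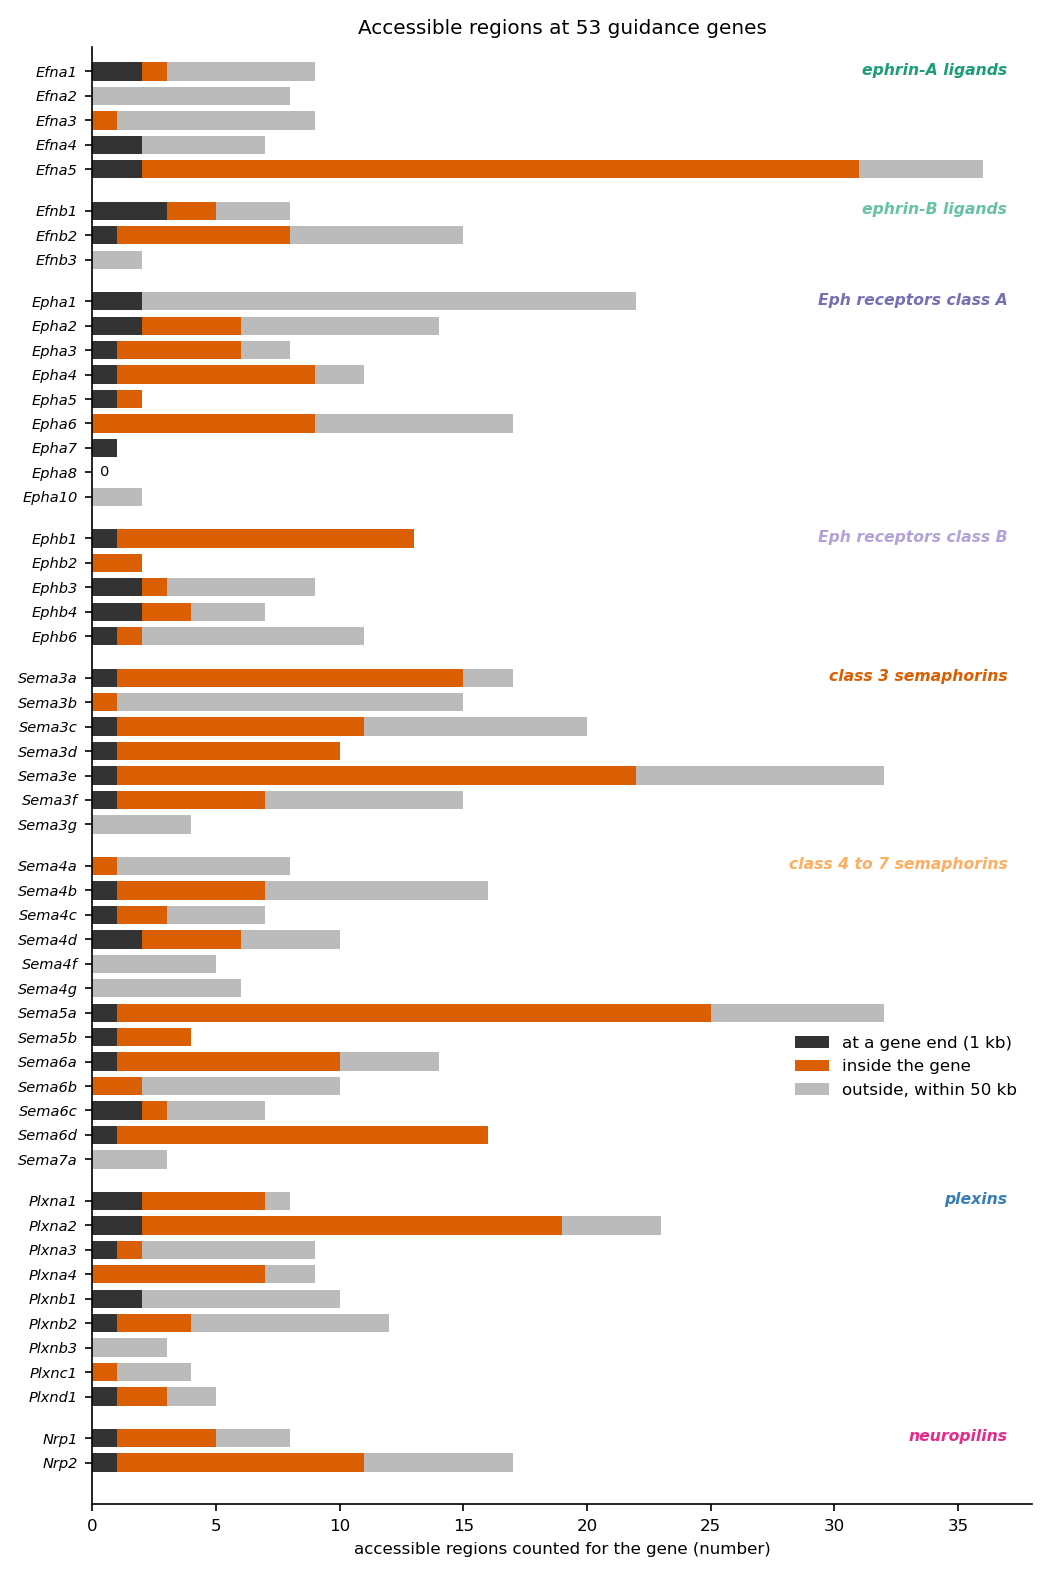
Number of accessible regions counted for each of the 53 guidance genes (horizontal axis), grouped by role, with bar segments for regions at a gene end, inside the gene and outside it within 50 kb. Efna5 (36), Sema3e (32) and Sema5a (32) had the most, and Epha8 had 0.

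Gene length bears on these counts, since the median length was 36.3 kb for the guidance genes and 17.2 kb over the whole set of protein-coding genes. Within classes of length, the share of genes with an end region was near the background below 100 kb. It was 52.6% of 19 guidance genes against 50.7% under 25 kb, and 66.7% of 12 against 68.7% from 25 to 100 kb. It was 84.6% of 13 (interval 54.6 to 98.1) against 68.4% from 100 to 250 kb and 77.8% of 9 (interval 40 to 97.2) against 61.6% over 250 kb, and both intervals hold the background. An inside region was found in 57.9% of guidance genes (interval 33.5 to 79.7) against 16.3% of all genes under 25 kb. The share was 66.7% (interval 34.9 to 90.1) against 59.4% from 25 to 100 kb. It was 92.3% (interval 64 to 99.8) against 87.1% from 100 to 250 kb, and 100% (interval 66.4 to 100) against 97.1% over 250 kb. From 25 kb up, each interval holds the background. Within the class under 25 kb the guidance genes were still longer, with a median of 13.6 kb against 7.49 kb. The contrast in that class is therefore not free of gene length. The median number of inside regions was 8 in guidance genes against 3 in all genes from 100 to 250 kb and 12 against 8 over 250 kb. The pooled number of inside regions per 100 kb of gene was 5.65 in guidance genes against 2.58 in all protein-coding genes under 25 kb, 8.56 against 3.12 from 25 to 100 kb, 4.77 against 3.33 from 100 to 250 kb, and 2.69 against 2.33 over 250 kb. Without the guidance gene with most inside regions, the rates were 5.15 under 25 kb (Efnb1 left out), 7.65 from 25 to 100 kb (Efnb2), 4.22 from 100 to 250 kb (Sema3e) and 2.15 over 250 kb (Efna5). The higher rate held in the 3 shorter classes without these genes. Over 250 kb it rested on Efna5, without which the other 8 guidance genes were below the 2.33 of all genes.

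Of the 53 guidance genes, 34 (64.2%) had more inside regions per 100 kb than the median gene of their length class, against 29.6% of all protein-coding genes. The 2 shares differ in their mix of length classes: 13251 of all 21887 genes were under 25 kb, against 19 of the 53. The shares by class are the closer comparison. The median under 25 kb was 0, so the 11 of 19 counted there (57.9%) are those with any inside region, against 16.3% of all. From 25 kb up the counts were 8 of 12, 10 of 13 and 5 of 9, where the share over all genes is 50% in each class. A total of 17 (32.1%) lay at or above the 90th percentile of their class, against 10% of all protein-coding genes by construction, a limit set after the values were seen. Of these 17, 7 were under 25 kb, where 1 or 2 inside regions are enough, 6 were from 25 to 100 kb, 3 were from 100 to 250 kb and 1, Efna5, was over 250 kb. At the other end, Epha5 and Epha7 lay at or below the 10th percentile. Genes without an inside region tie at percentile 41.8 under 25 kb and 20.3 from 25 to 100 kb. No gene below 100 kb could therefore reach that limit, and the counts at the 2 ends are not comparable.

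**Figure D2:**
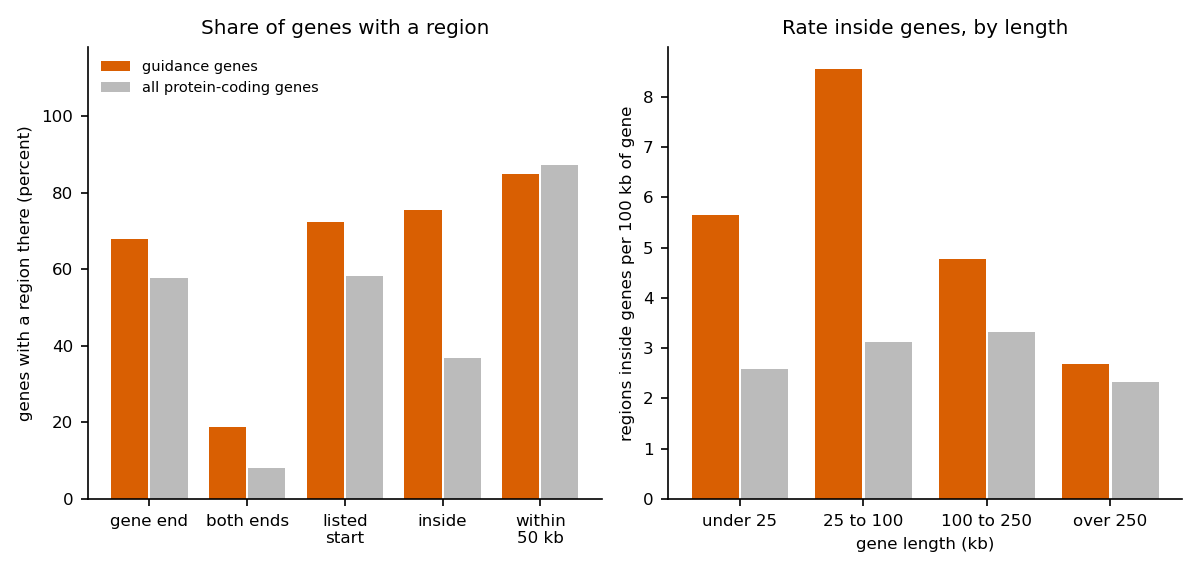
Guidance genes (orange bars) beside all protein-coding genes (grey bars): on the left the percent of genes with an accessible region of each kind, on the right the pooled inside regions per 100 kb of gene in the 4 length classes, without error bars. The share with an inside region was 75.5% against 36.7%, not matched for gene length. The rate over 250 kb, 2.69 against 2.33, was 2.15 without Efna5.

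Among the ligands, the ephrins had the higher pooled rate of inside regions, 10.6 per 100 kb over 8 genes, with most of the regions in Efna5. Efna5, a GPI-anchored ligand of EphA receptors, spans chr17:62602957-62881317 and had 2 end, 29 inside and 5 flanking regions. Its 10.4 inside regions per 100 kb put it at percentile 98.8 of genes over 250 kb. The region at its start, chr17:62879397-62884867, was 5471 bp wide and covered all of the Efna5 sequence printed above. Its inside regions were spread over the whole gene, with 5, 8, 6 and 10 in 4 equal bins of the gene taken from its start, and no stretch over 35.3 kb was without one. The widest of them measured 2241, 2200 and 2221 bp and lay 75.1, 91.8 and 97.3 kb from the start.

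The other ephrin-A genes were short. Efna1, a ligand of Epha2, had a region of 3476 bp at its start, 1 of 1336 bp at its other end and 1 inside. Efna4 had 2 regions at its upper bound, of 1207 and 879 bp. Efna3 had no region at its gene bounds, but an inside region lay within 1 kb of a RefSeq start without covering it, its midpoint at 1247 bp. Efna2 had neither an end nor an inside region, and its start was 6318 bp from the nearest region midpoint. The 3 neighbours Efna1, Efna3 and Efna4 had 9, 9 and 7 regions in all, and Efna2 had 8, all of them flanking.

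Of the transmembrane ephrins, Efnb2 carried the most. Efnb2, a ligand of the class B receptors that marks arterial vessels, spans chr8:8617235-8661242 and had a start region of 3821 bp, chr8:8658485-8662305, and 7 inside regions. At 15.9 inside regions per 100 kb it was at percentile 98.4 of genes from 25 to 100 kb. Those 7 lay between 8.04 and 21.2 kb from the start, the widest, 2190 bp, at 11.4 kb. Efnb1 on the X chromosome had 3 end regions, of 453, 1156 and 3144 bp, and 2 inside. Efnb3 had no end or inside region and 2 flanking ones.

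Among the receptors, the Eph genes had the lowest pooled rate, 1.64 inside regions per 100 kb over 14 genes, against 2.84 for all protein-coding genes. The rate over all genes above 250 kb was 2.33. Pooled rates of families are not matched for length: the median was 92.1 kb for Eph receptors and 9.88 kb for ephrins. Class A alone was at 1.31 and class B at 2.64, and several class A genes were long with few regions. Epha5 spans 363 kb and had 1 end region of 755 bp and 1 inside region of 299 bp, which left a stretch of 323 kb, 88.9% of the gene, with none. Epha7 spans 154 kb and had a single region of 3420 bp, chr4:28812500-28815919, at its start, and 152 kb or 98.2% of the gene without one. Epha3 spans 321 kb with 1 end and 5 inside regions, and Epha6, 969 kb long, had 9 inside and 8 flanking regions and none at its bounds. A region of 335 bp had its midpoint 976 bp from the RefSeq start of Epha6 and did not cover the start. Epha10, whose kinase domain is known to be inactive, had 2 flanking regions only. Epha8 had none within 50 kb, and its start was 62843 bp from the nearest region midpoint.

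Among the other class A receptors, Epha2 alone had a high density of inside regions for its length class. Epha2, the class A receptor best known in epidermis and a partner of Efna1, spans 28.2 kb, chr4:141301221-141329384. It had end regions of 2118 bp at its start and 961 bp at its other end, 4 inside and 8 flanking. At 14.2 inside regions per 100 kb it was at percentile 97.5 of its class, and the widest, chr4:141309064-141311899, measured 2836 bp at 9.26 kb from the start. Epha4, a receptor that binds ephrins of both classes, had a start region of 3213 bp and 8 inside in 148 kb, at percentile 78.2 of its class. Epha1 had 2 wide end regions, of 3337 bp at its start and 2716 bp at its other end, none inside and 20 flanking, the most of any guidance gene. Epha1 was the gene with the nearest bound for 7 of those 20.

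Of the class B receptors, Ephb1 had 12 inside regions in 433 kb and 1 end region of 1234 bp. Ephb3 and Ephb4, the receptor paired with Efnb2 in vessels, had regions at both ends, of 1363 and 362 bp at Ephb3 and of 1215 and 1869 bp at Ephb4. Ephb6, another receptor with an inactive kinase, had an end region of 4242 bp, chr6:41603350-41607591, that covered the Ephb6 sequence printed above. Ephb2 had no end region and only 2 inside, of 200 and 290 bp, in 189 kb. Ephb2 and Epha8 lie 93.1 kb apart on chromosome 4, and no region lay between them.

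**Figure D3:**
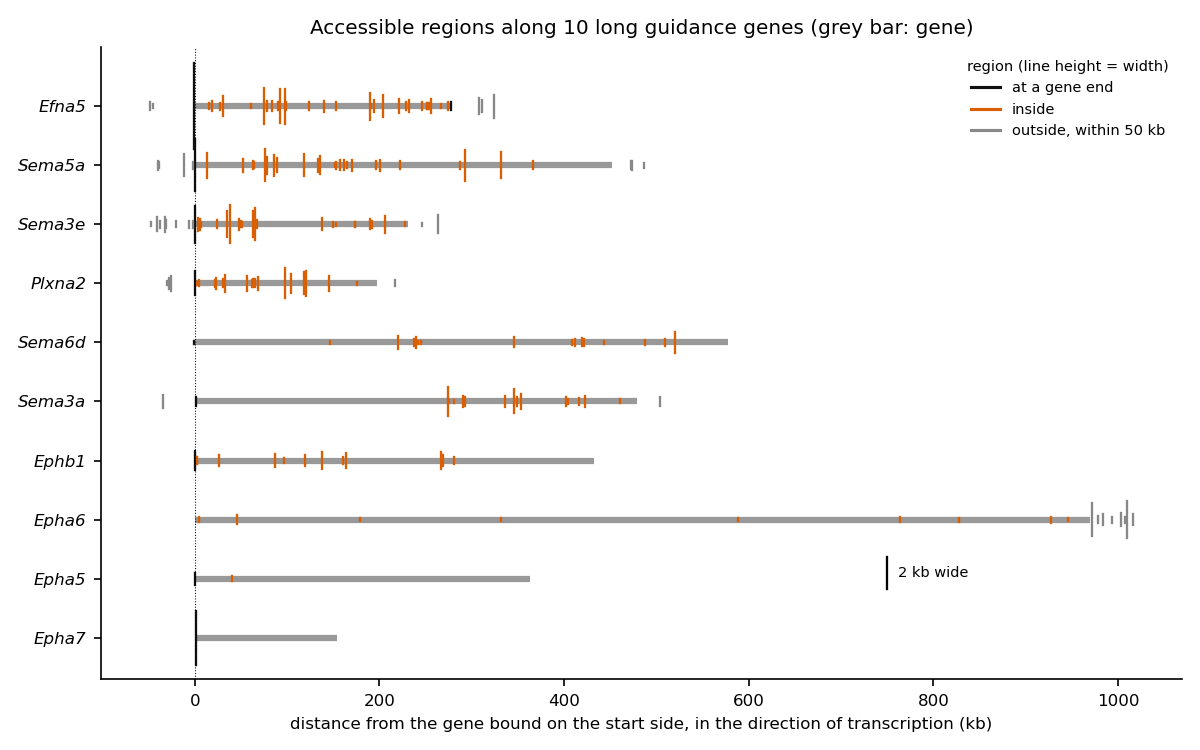
Positions of accessible regions along 10 long guidance genes, as distance in kb from the gene bound on the start side, with the height of each line proportional to the width of the region and colours for regions at an end, inside and outside. Efna5 had regions from end to end, and the longest stretch of Sema3e with none was 69.2 kb. Epha5 and Epha7 had longer stretches with none, of 323 and 152 kb.

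The pooled rate of the semaphorins lay between those of the ephrins and the Eph receptors, at 4.77 inside regions per 100 kb over 20 genes. Their median length, 34.4 kb, also lay between, and no order of density at like length was read from these rates. The class 3 members Sema3a, Sema3c, Sema3d and Sema3e all lie on chromosome 5 and each had 1 end region and at least 9 inside. Sema3e, the class 3 semaphorin that binds Plxnd1 without a neuropilin, spans chr5:14025276-14256689 and had a start region of 2336 bp, 21 inside and 10 flanking regions, at percentile 93.6 of its class. The first of 4 equal bins of the gene held 9 of the 21, among them the widest, 2393 bp at 38.5 kb. Sema3c, with 10 inside regions in 155 kb, had an end region of 3414 bp, and Sema3d had 9 inside and no flanking region.

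Sema3a, a ligand of Nrp1 and the classic repellent of sensory axons, had its 14 inside regions in the second part of its 479 kb. None lay in the first or second of 4 equal bins, 9 in the third and 5 in the last, and 272 kb, 56.9% of the gene, was without a region. The bins run from the gene bound at position 13124822 of chromosome 5. The RefSeq start listed for Sema3a lies inside the gene, at position 13396784, and all 14 inside regions lay past it. The widest of the 14, 1854 bp at chr5:13398332-13400185, had its midpoint 2474 bp from that start. The other class 3 genes were short: Sema3f, a ligand of Nrp2, had 1 end and 6 inside regions in 29 kb, 20.7 per 100 kb and percentile 99.5 of its class, the densest of the guidance genes. Sema3b had 1 inside and 14 flanking regions, and Sema3g had 4 flanking regions only.

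Among the membrane-bound semaphorins, Sema5a had 24 inside regions in 452 kb, at percentile 89.3 of genes over 250 kb, and a start region of 3329 bp. From the start of Sema5a on, 4 equal bins held 8, 12, 3 and 1 of them. Sema6a had the widest end region of all guidance genes, 5532 bp, with 9 inside in 126 kb. Sema6d had 15 inside in 578 kb and an end region of only 201 bp. Sema4b, a transmembrane semaphorin, had 6 inside in 39.8 kb, 15.1 per 100 kb and percentile 98.0. Sema4c, a ligand of Plxnb2, had 1 end region and 2 inside in 12.1 kb. Sema4d, the ligand of Plxnb1, had regions of 1125 and 697 bp at its 2 bounds and 4 inside, and none at the 3 RefSeq starts listed for it. Sema6c had regions of 1097 and 475 bp at its 2 bounds and 1 inside, and Sema5b had 1 end and 3 inside regions.

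No region lay within 1 kb of a bound or a listed start of Sema4f, Sema4g or Sema7a, which had 5, 6 and 3 flanking regions and none inside. Sema4a and Sema6b also lacked an end region, but an inside region covered a listed start of each. Sema7a is the GPI-anchored semaphorin, and its receptor Plxnc1 likewise had no region at a bound or a listed start. Plxnc1 had 1 inside and 3 flanking regions over 154 kb, and 137 kb of it, 88.7%, was without one.

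Of the 9 plexin genes, 6 had an end region (66.7%, interval 29.9 to 92.5), against 57.6% of all protein-coding genes, a share inside that interval. Plxna2, a receptor of class 6 semaphorins and, with neuropilins, of class 3, had 2 end regions, 17 inside and 4 flanking in 197 kb, with 8.63 inside regions per 100 kb. Both neuropilin genes had 1 end region, Nrp2 with 10 inside in 115 kb and Nrp1, also a co-receptor of VEGF, with 4 in 147 kb. Plxnb1 had regions of 3446 and 849 bp at its 2 ends and none inside. Plxnb2 had a start region of 3255 bp and, at a second listed start, an inside region of 3240 bp, chr15:89173021-89176260, the widest inside region of the guidance genes. Its 3 inside regions in 26.5 kb, at 11.3 per 100 kb, were the fifth highest rate among guidance genes of at least 25 kb. Plxna1 had 2 end and 5 inside regions, and Plxna3 and Plxnd1 had 1 end region each with 1 and 2 inside. Plxna4 had none at its bounds and 7 inside in 444 kb. Plxnb3 on the X chromosome had 3 flanking regions only.

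**Figure D4:**
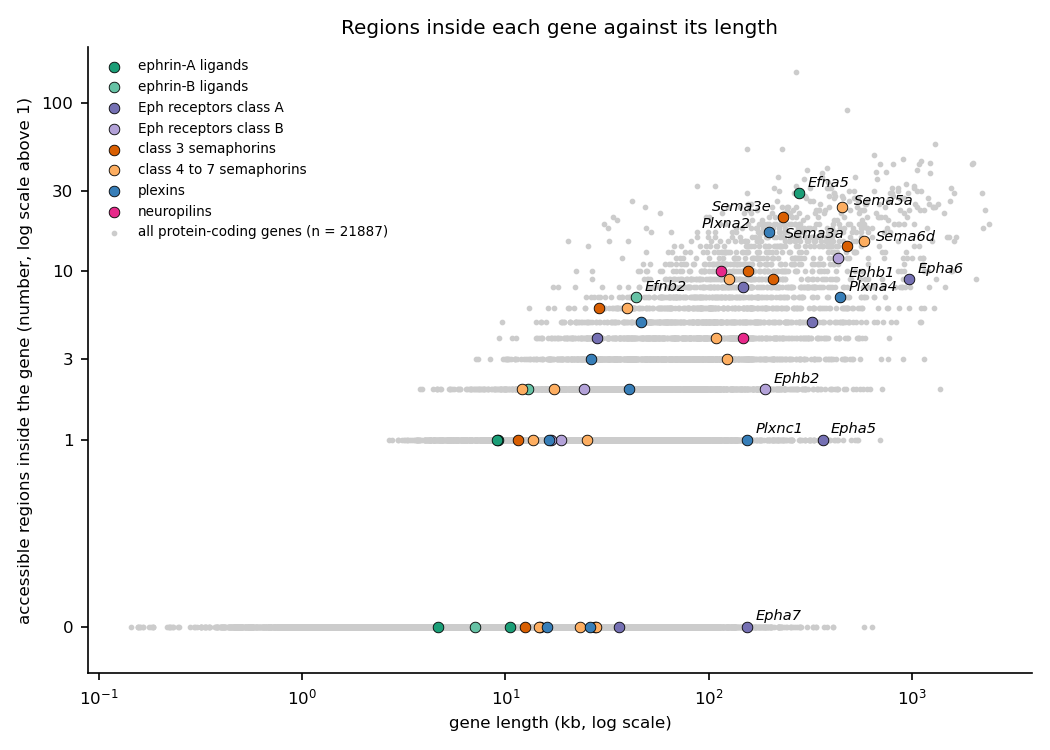
Number of accessible regions inside each gene (vertical axis, log scale above 1) against gene length in kb (log scale), with guidance genes coloured by role over all 21887 protein-coding genes in grey. Efna5, with 29 regions in 278 kb, stands near the upper edge for its length, and Epha7 and Epha5, with 0 and 1, near the lower.

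Across guidance genes of at least 100 kb whose strand is listed, inside regions were spread much as in other genes. The first of 4 equal bins held 49 of 198 regions in 20 genes (24.7%), against 26.2% in all such protein-coding genes, and the last bin 44 (22.2%), against 24.2%. Individual genes differed: Sema5a, Plxna2 and Ephb1 had 1, 1 and 0 in the last bin, and Sema3a and Sema6d had 0 in the first. Bins run between gene bounds, and the listed start of Sema3a lies far inside its bounds.

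End regions of guidance genes had nearly the same median width as those of all genes, but more of them were wide. The median was 1237 bp over 50 end regions, against 1189 bp over 13087, and the upper quartile 3037 against 1686 bp. Of the 50, 16 (32.0%) were over 2 kb, against 15.8% of all, a limit set after the widths were seen. They belonged to 15 genes, or 28.3% of the guidance genes against 10.9% of all. These were the ligand genes Efna1, Efna5, Efnb1, Efnb2, Sema3c, Sema3e, Sema5a and Sema6a and the receptor genes Epha1, Epha2, Epha4, Epha7, Ephb6, Plxnb1 and Plxnb2. The 3144 bp region of Efnb1 and the 2716 bp region of Epha1 lay at the bound where transcription stops, and the other wide ones with a listed strand at the bound where it starts. Inside regions measured a median of 616 against 569 bp. Width was the only property of a region in the list, and reads behind it are unknown.

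In what follows a start or stop is called covered when a region lay within 1 kb of it. Starts were more often covered than stops. Of the 47 guidance genes with a listed RefSeq start, 34 (72.3%) had a region within 1 kb of it, against 58.3% of 17492 protein-coding genes. By gene bound, 22 (46.8%) had a region at the start bound only, against 46.9%, and 1 (2.13%) at the stop bound only, against 2.76%. Regions at both bounds were found at 10 (21.3%), against 8.21%, and at neither at 14 (29.8%), against 42.1%. The 10 with both were Efna1, Efna5, Efnb1, Epha1, Epha2, Ephb3, Ephb4, Sema4d, Sema6c and Plxnb1. Of 235 inside regions in the 47 genes, 9 (3.83%) lay within 1 kb of a listed start of the same gene, against 6.90% of all. Regions within 1 kb of a bound are not counted as inside, and many listed starts lie at a bound. Both shares are therefore low in part by definition. No start was listed for Efnb3, Sema3b, Sema3f, Sema6a, Plxna1 and Plxna4.

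Covered and uncovered starts differed less in CpG content among the guidance genes than over all genes. The CpG ratio is the number of CpG in the 300 bases around a start over the number that its C and G content would give. Its median was 0.681 at 39 starts with a region and 0.464 at 22 without among guidance genes, against 0.766 at 12164 and 0.222 at 9099 over all protein-coding genes. Of 35 guidance gene starts with a ratio over 0.6, 10 (28.6%) had no region, against 13.0% of 10129. Of the 26 with a lower ratio, 14 (53.8%) had one, against 30.1%.

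The 10 uncovered starts rich in CpG were those of Epha8, Epha10, Ephb2, Efna2, Plxnc1, Sema4g and Sema7a, and 1 start each of Efna3, Sema6b and Sema6d. Epha8 stood out by its sequence, with 84.3% G and C and a ratio of 1.06, close to the 1.1 of the covered start of Efna5. The starts of Epha8, Ephb2, Epha10 and Sema7a were 62843, 33259, 30981 and 29237 bp from the nearest region midpoint. The uncovered start of Sema6d was 1122 bp from the midpoint of the 201 bp region counted at its gene bound.

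**Figure D5:**
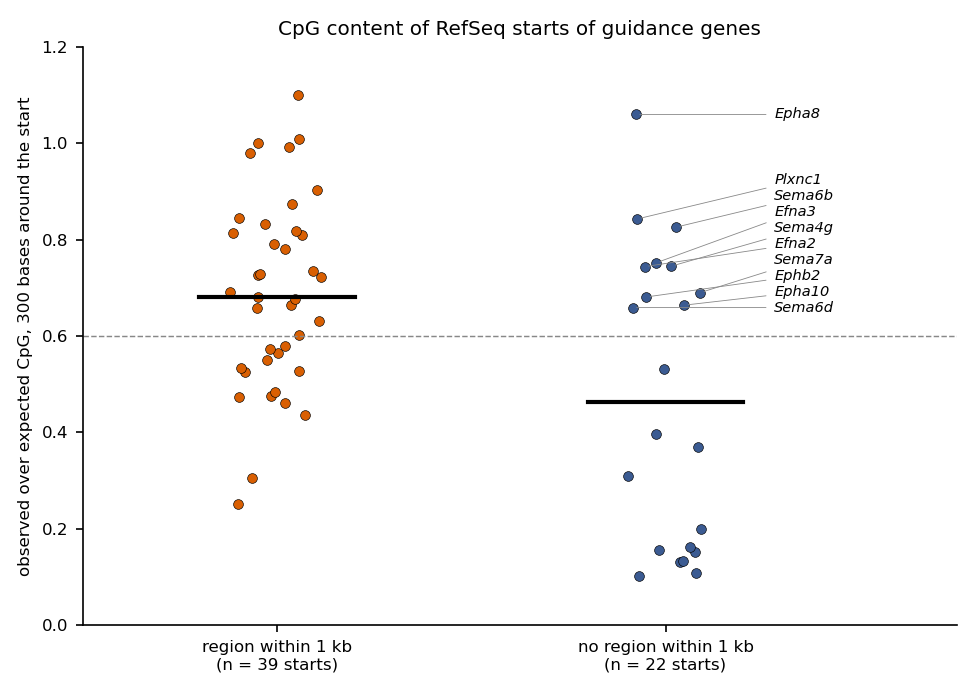
CpG ratio of the 300 bases around each RefSeq start (vertical axis), for starts with and without an accessible region within 1 kb, with the 61 guidance gene starts as points, medians as bars and a dashed line at 0.6. The medians were 0.681 with a region and 0.464 without, and the 10 starts without a region above the line are named.

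The same 300 bases of 61 starts were searched on both strands for 8 motifs, and a match is a description of letters, not of binding. The GC box GGGCGG was in 46 (75.4%), against 46.2% of 21263 starts, and the split was 33 of 39 covered starts, against 65.3% of all covered starts, and 13 of 22 uncovered starts, against 20.7%. The forkhead motif TGTTTAC was in none of the 61, against 3.01% of all starts. The NFAT motif TGGAAA was in 7 (11.5%), against 19.3%, the SOX motif ACAAAG in 10 (16.4%), against 16.8%, and the CCAAT box in 20 (32.8%), against 38.2%. The AP-1 motif TGANTCA was in 3 (4.92%), against 6.99%, the TEAD motif GGAATG in 7 (11.5%), against 13.6%, and the CRE motif TGACGTCA in the start of Epha2 alone (1.64%), against 2.23%. Apart from the GC box, which itself holds a CpG, each share was below that of all starts. The guidance gene starts had a median of 64% G and C, against 56.3% over all starts. The motif shares are not matched for base composition.

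Other genes of these and related pathways were counted in the same way. Of 37 intracellular effectors and co-receptors of Eph receptors, plexins and neuropilins, 29 had an end region and 28 an inside region, with 4.62 inside regions per 100 kb pooled over the set. The share with an end region was 78.4%, against 57.6% of all protein-coding genes and 68.4% of those from 100 to 250 kb. The share with an inside region was 75.7%, against 36.7% of all and 87.1% of those from 100 to 250 kb. The median length of the effectors lies in that class. Tiam1, an activator of Rac, had 38 inside, and Mical3, Vav3, Farp1 and Fyn had 23, 21, 19 and 16. Of 10 Slit and Robo pathway genes, 6 (60.0%) had an end region, near the 57.6% of all genes. All 10 had an inside region, at 2.81 per 100 kb, led by Robo1 with 32, where 97.1% of all genes over 250 kb had one. Of 12 netrin, DCC and UNC5 genes, 7 (58.3%) had an end region, also near the background, at 1.19 inside regions per 100 kb, and Ntn1 had no region of any kind. These sets differ in median gene length, 111 kb for the effectors, 255 kb for the Slit and Robo genes, 170 kb for the netrin genes and 36.3 kb for the guidance genes, and no order was read from the pooled rates.

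Several of these genes are also used by vessels, so markers of other cell types were counted. All 10 hair follicle stem cell markers had an end region and 4 of 5 basal keratinocyte markers did, Trp63 being the exception. For comparison, 57.6% of all protein-coding genes had one. An end region was found at 4 of 6 melanocyte markers (Dct, Pmel, Mlana and Mitf, not Tyr or Tyrp1), 2 of 6 endothelial markers (Tek and Kdr), 1 of 5 immune markers (Cd68) and 1 of 5 dermal fibroblast markers (Col1a1). Inside regions did not set the sorted cells apart in the same way. One or more were found at 6 of 10 stem cell, 3 of 5 keratinocyte and 4 of 6 endothelial markers. The counts were 3 of 6 for melanocyte, 0 of 5 for immune and 2 of 5 for fibroblast markers, against 36.7% of all genes. These counts are not matched for gene length. The list gives no level at these genes, and the part of other cell types in the regions at guidance genes was not tested.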

How the data were processed

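Accessible regions were measured by ATAC-seq in 2 genotypes, Foxc1 knockout and control, with 1 library of 2 runs each. The authors deposited 1 list that gives only the chromosome and the start and end coordinates of each region. Bowtie2, MACS2, bedtools and the mm10 build are named, per the submitters' processing notes. Their versions and settings, the depth, and any pooling of reads for calling were not given in the sources used here. Therefore a missing region cannot be told apart from low depth. The number of unused columns with values of samples was 0. The planned comparison of genotypes was not made.

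Region starts were made 1-based. Gene bounds, strands and promoter sequences came from RefSeq tables of GRCm38.p6, matched by gene, with a start for 47 of 53 guidance genes (61 starts). Each region was put in the first class that held for a gene: end (within 1000 bp of a bound, 1 shared base), inside (midpoint), flank (midpoint within 50 kb). A percentile is the share of genes of the length class with a lower rate, with ties at their mean rank. No test was made, since genes of 1 list are not replicates. Genes were named by a rule: the 10 with most regions, the 5 widest ends, the 5 highest rates from 25 kb up, genes with no end region, shared regions, and the extremes of each role; the remaining members are given by counts. The members and lists were chosen with earlier results of these data known. Python 3.11.15, pandas 2.3.3 and NumPy 2.4.6 were used, SciPy 1.17.1 for intervals and Matplotlib 3.10.9 for figures. Alternatives changed the windows, the assignment rule and the least region width. A further list of cell type markers is not reported here.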

Additional observations from a re-analysis of the deposited data

How the results depend on the processing

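No paired analysis was possible because each genotype was 1 library and the single list has no columns by run, and for the same reason no replicate could be left out. Of 78 values recomputed under alternative settings, 66 stayed within 1.5 times. Some of the 66 could not change, such as the end and inside counts when only the flank rule was altered. The 66 is therefore not a measure of how stable the results were. The number of guidance genes with an end region was 30 to 41, lowest when the midpoint of a region had to lie in the end window and highest with 2500 bp around the bounds, and the number with an inside region was 33 to 43.

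The median of flanking regions, 4, was 1 with a flank of 20 kb, 10 with 100 kb, 0 when a region counted only for the gene with the nearest bound, and 2 with regions at or above the median width. With the nearest bound, 24 guidance genes had a flanking region in place of 45. The median of inside regions, 2, was 1 with 2500 bp around the bounds, with regions of at least 400 bp, and with regions at or above the median width. The median width as a limit left 337 regions in all in place of 558. Of the 10 uncovered starts rich in CpG, 4 had a ratio over 0.75, a limit chosen after the data were seen, as were the other settings for these starts and the count of 34 genes above their class median, which was 30 to 35. Added later still, leaving out the gene with most inside regions changed the rate per 100 kb of guidance genes minus all genes to -0.178 over 250 kb (Efna5 left out, 0.355 with it) and to 0.894 from 100 to 250 kb (Sema3e left out, 1.44 with it).

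Depth is unknown, so at genes such as Epha8, Epha5 or Ephb2 a missing region cannot be told apart from one below detection. The list does not separate genotypes or cell types.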
